A study of Oncorhynchus mykiss with 7 samples.

Results

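A set of 39 microarray probes gave a signal well above background in the proximal intestine of some individual rainbow trout and not of others. They were selected on their measured signals, out of 49255 different probes on the array that are not controls (0.0792%). A probe was taken where the scanner software marked every one of its spots as well above background, called detected below, on 2 to 5 of the 7 arrays, and none of its spots on the other arrays. Its dimmest detected array also had to lie at least 3 log2 units, or 8-fold, above its brightest undetected array. Detection and gap are therefore how the probes were chosen and are given as descriptions without a test.

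The arrays compared 2 feeds in all-female juvenile trout of the Störk strain, and each array was taken as 1 fish. The labels speak both of RNA specimens of individual fish and of a pool of fish sampled per tank, so that a value belongs to a single fish only if the arrays hold individual specimens. The 4 fish called insect 1 to insect 4 ate a feed with 400 g of black soldier fly meal and 3 g of the binder guar gum per kg, in which 100% of the soy protein had been replaced. The 3 fish called control 1 to control 3 ate a feed with 300 g of soy protein concentrate per kg. The fish of both groups were taken at the end of a 69-day trial from the tanks named A, each stocked with 55 fish. Insect meal, guar gum, the removal of soy protein and tank thus changed together and cannot be told apart. Any p-value measures the spread between fish only. Control 2 and control 3 lay on slide 2, and control 1 and all insect arrays on slide 1. Slide 2 thus held no insect array, so feed and slide overlap in large part in every comparison of the feeds. The labels list a dye other than cyanine 3 for insect 3 and insect 4, while the file headers give 1 channel for every array.

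The proximal intestine with its pyloric caeca is where trout digest protein and fat and take up the products, and its RNA comes from absorptive, mucus-forming, endocrine, muscle and immune cells together. In such bulk RNA, fewer cells of a type and less RNA per cell cannot be told apart. A microarray probe is a short DNA strand that binds labelled RNA of a matching sequence, so its signal depends on the amount of the transcript and on how well the sequence matches. Salmonid genomes also carry many near-identical gene copies from an ancestral duplication of the whole genome, and a probe may bind more than one of them.

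The files give each probe an identifier but no gene name, and 0 of the 39117 identifiers matched the trout gene table used here, so the probes are named by their own IDs and no cell type marker could be checked. Of the 39 probes, 8 carried a RefSeq mRNA accession (NM_), 13 an identifier starting with TC, 7 one starting with BT, 6 one starting with DW, CK, DY or EG, and 5 only their own name. No 2 of them shared an identifier. The 8 RefSeq accessions were among the identifiers without a match in the trout gene table. Which species the sequence behind each probe comes from was not checked. Because dark readings of a probe are not a measurement of a missing transcript, they are called on-off probes here. A fish said to lack a signal, or in which it is missing or dark, is one where the probe was undetected. Such a probe may still give a low signal.

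Levels below are log2 processed signals relative to the 75th percentile of the probes detected on all 7 arrays, so that 0 lies at that percentile of an array and a difference of 1 is 2-fold. The 39 on-off probes gave 162 detected values, from -4.12 to 2.04 with a median of -1.89, and 111 undetected values, from -8.59 to -4.29 with a median of -7.07. Among all probes detected on the same arrays, an on-off probe's median percentile ran from 23.5 to 92.0, with a median of 56.1. Some detected readings were thus dim. Probes differ in how strongly they bind, so levels are compared between fish for the same probe and not between probes. Among the fish that had the signal, levels of a probe spanned 0.29 to 4.47 log2 units, with a median of 1.27. In 16 probes that span was under 1 unit and in 7 it was over 2.

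The gap between the groups of fish ran from 3.00 to 8.04 log2 units, with a median of 4.08, and 21 probes had a gap of 4 or more. Undetected signals lie at the edge of what the array can measure, and their order has little meaning. On insect 2, 21137 of the 33222 spots not well above background (63.6%) held 1 identical signal, and 10 of the 16 on-off probes undetected in that fish sat on it, at a level of -7.41. The gap was therefore also computed with every undetected array raised to the lowest level that any detected probe reached on it. This bounded gap ran from 0.96 to 6.33 log2 units with a median of 2.64, and was 3 or more for 14 of the 39 probes. The "at least" folds between fish with and without a signal are such bounds, from the dimmest fish that had it. An undetected probe can read above that lowest level, as A_05_P412452 did in insect 4 (-4.29 against -5.24). The bounds thus hold by this convention and do not use each probe's own limit of detection.

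**Figure D1:**
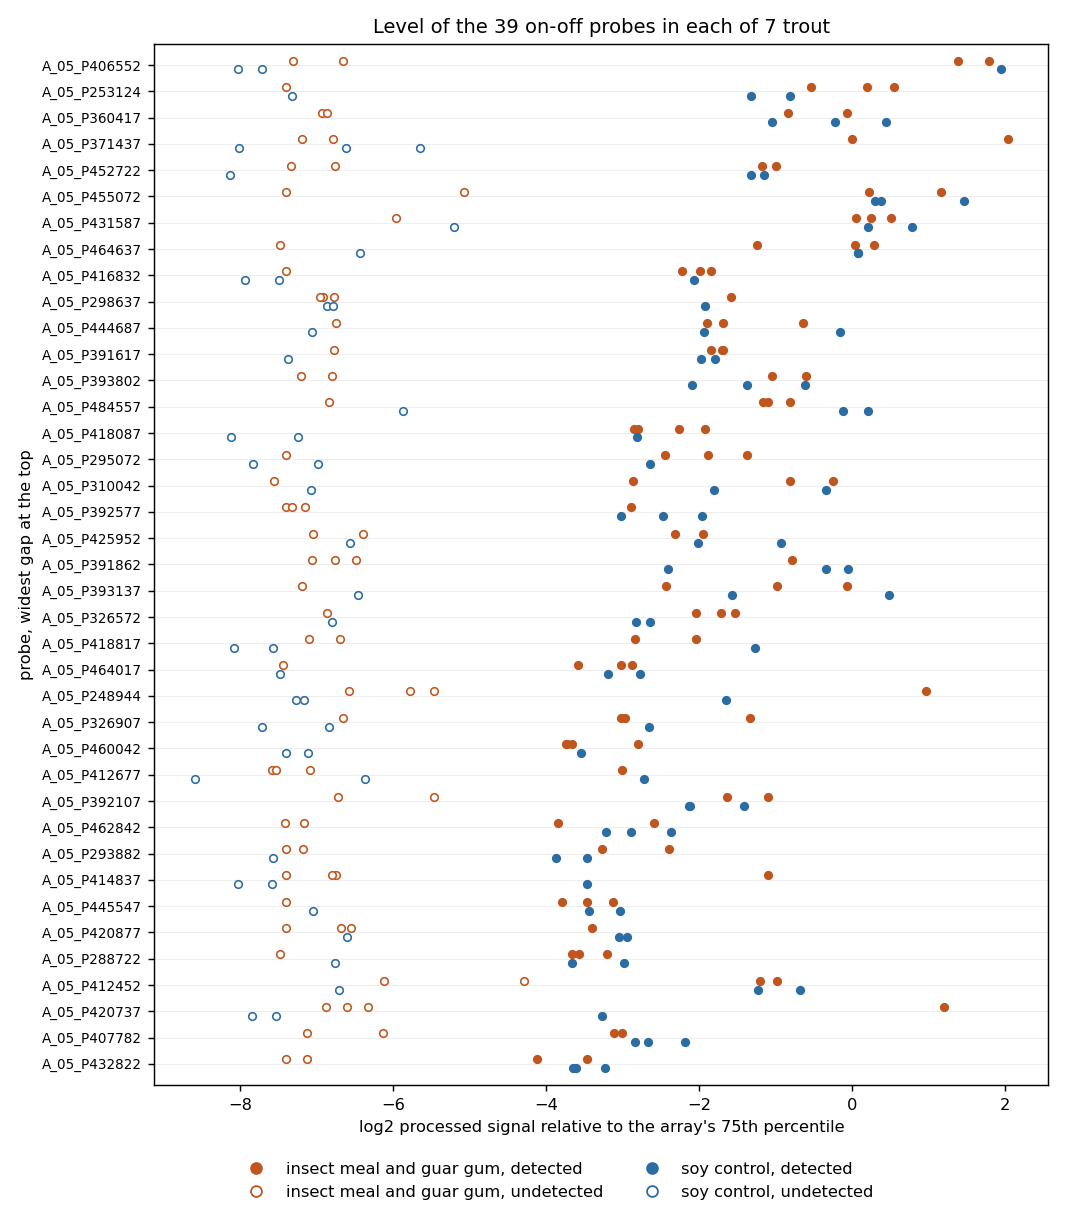
Level of each on-off probe (rows, widest gap at the top) in the 4 fish on the insect feed (orange) and the 3 control fish (blue), as log2 processed signal relative to the array's 75th percentile. Filled circles are detected and open circles undetected; every row leaves a space of at least 3 log2 units between them, by the rule that chose the probes, and both colours occur on both sides in most rows.

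The widest gap, bounded or not, belonged to A_05_P406552 (NM_001245913). Its level was -6.66, -7.31, 1.39 and 1.80 in insect 1 to insect 4, against -8.03, -7.71 and 1.96 in control 1 to control 3. Insect 3, insect 4 and control 3 thus had a strong signal, and in the other 4 fish the probe was not well above background. Both of its spots read 517 to 551 on insect 3 and insect 4, against 535 to 879 on control 3, and at most 1.40 on insect 1 and insect 2, against at most 1.70 on control 1 and control 2. By the bound described above, fish with the signal exceeded the others at least 80.3-fold, and among themselves they differed by 0.57 log2 units.

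A_05_P253124 (DW178528) had a gap of 6.00, or of 3.76 as bounded. It read 0.19, -7.41, -0.54 and 0.55 in insect 1 to insect 4, against -1.32, -7.32 and -0.80 in control 1 to control 3. Insect 2 and control 2 were the fish without it. The mirror image by fish was A_05_P412677 (NM_001140812), detected in those 2 fish alone, at -3.01 in insect 2 and -2.71 in control 2, with the other insect fish at -7.58 to -7.09 and the other control fish at -8.59 and -6.37.

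A_05_P371437 (TC192637) was the single on-off probe detected in no control fish. It read -6.79, 0.01, -7.19 and 2.04 in insect 1 to insect 4, against -8.01, -5.65 and -6.62 in control 1 to control 3. It was detected in insect 2 and insect 4, which are 2 of the 4 fish on the insect feed, and undetected in the other 5 fish. On control 2 its only spot, with a signal of 5.34, still lay above background but below the mark for well above it. The insect fish averaged -2.98 ± 4.70 (SD, n = 4) and the control fish -6.76 ± 1.19 (SD, n = 3). With each control raised to at least the lowest level of any detected probe on its array, the means differed 7.84-fold. That value is no lower bound, since the insect mean still holds the undetected readings of insect 1 and insect 3. The difference between the feeds was not called by limma (adjusted p = 0.665).

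A_05_P360417 (EG908148) read -6.94, -0.06, -0.83 and -6.87 in insect 1 to insect 4, against -1.04, 0.44 and -0.21 in control 1 to control 3. Every control fish had it, and insect 2 and insect 3 as well, while insect 1 and insect 4 did not. The same 5 fish had A_05_P392107 (gap 3.34) and A_05_P407782 (TC170408, gap 3.03). Of the 4016 probes that were on or off at every spot, called probes with on-off flags and counted whatever their gap, 215 had this set of arrays, so a set in common says little about the probes that share it.

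A_05_P455072 (TC172584) was likewise present in every control fish. It read 0.22, -7.41, 1.17 and -5.07 in insect 1 to insect 4, against 1.46, 0.30 and 0.38 in control 1 to control 3. Here the probe was detected in insect 1 and insect 3 and undetected in insect 2 and insect 4. On insect 4 its signal of 4.44 still lay above background, though below the mark for well above it. The 3 control fish thus agreed for both A_05_P360417 and A_05_P455072, while the insect fish divided differently for each. In all, 2 of the 39 probes were detected in every fish on the insect feed and 9 in every control fish. Of the 4016 probes with on-off flags, whatever their gap, 1.97% were detected in every insect fish and 25.8% in every control fish, so an excess on the control side is already in that pool. The 2 counts are also not alike, since there were 3 control and 4 insect fish. With at most 5 fish detected by the rule, detection in every control fish is easier to meet.

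Both A_05_P431587 (NM_001139703) and A_05_P464637 (TC176950) were missing in insect 3 and control 3 and detected in the other 5 fish. A_05_P431587 read 0.06, 0.25, -5.97 and 0.51 in insect 1 to insect 4, against 0.22, 0.79 and -5.21 in control 1 to control 3. A_05_P464637 read -1.24, 0.04, -7.48 and 0.30 in insect 1 to insect 4, against 0.08, 0.08 and -6.43 in control 1 to control 3. Their gaps were 5.27 and 5.19, whereas the 28 probes with this set of arrays, whatever their gap, included no other with a gap of 3 or more. In the fish without A_05_P431587 both spots still counted as positive and significant, with signals of 2.82 and 3.85 on insect 3 and of 4.19 and 5.46 on control 3. Those signals lie above background but below the mark for well above it. Over all 111 undetected values, 25 had every spot in this in-between state and 75 had none.

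Other probes of wide gap had steadier levels. A_05_P452722 (NM_001139917) read -6.75, -0.99, -7.33 and -1.17 in insect 1 to insect 4, against -8.13, -1.14 and -1.32 in control 1 to control 3. The 4 fish that had it, insect 2, insect 4, control 2 and control 3, lay within 0.33 log2 units of each other. A_05_P416832 (BT059092) read -1.84, -7.41, -1.99 and -2.23 in insect 1 to insect 4, against -2.07, -7.93 and -7.49 in control 1 to control 3, and its 4 positive fish lay within 0.39 units.

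A_05_P391617 (TC185383) had the narrowest span of all, 0.29 log2 units over 5 fish. That span is below the spread between its 2 spots on control 2, which read 48.0 and 96.3 (SD 0.71 log2 units). The probe read -6.77, -1.70, -1.68 and -1.85 in insect 1 to insect 4, against -1.79, -1.98 and -7.38 in control 1 to control 3. Insect 1 and control 3 were the fish without it, and the same 2 fish lacked A_05_P326572 (TC174838), which read -2.04 to -1.53 in the other 3 insect fish and -2.64 and -2.83 in control 1 and control 2.

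A_05_P444687 (TC182568) was missing in insect 4 and control 3. It read -1.90, -0.64, -1.68 and -6.74 in insect 1 to insect 4, against -0.16, -1.94 and -7.06 in control 1 to control 3. A_05_P393137, which has no identifier beyond its own name, was missing in the same 2 fish, with a wider span of 2.92 log2 units among the 5 that had it.

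The set of arrays shared by most on-off probes was insect 3 with control 1, where 4 of the 39 were detected and all other fish were dark. A_05_P298637 read -6.78, -6.91, -1.58 and -6.95 in insect 1 to insect 4, against -1.92, -6.87 and -6.79 in control 1 to control 3. A_05_P248944 (NM_001123551) read -5.78, -6.58, 0.97 and -5.47 in insect 1 to insect 4, against -1.65, -7.27 and -7.16 in control 1 to control 3. The first had nearly the same level in the 2 positive fish, and the second was 2.62 log2 units higher in insect 3 than in control 1.

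A_05_P248944 is also the most securely measured of the on-off probes, with 20 spots per array. All 20 were detected on insect 3, with signals of 352 to 535, and on control 1, with signals of 58.7 to 129. None of the 20 was detected on any other array, where signals reached at most 6.01 in insect 4, and at most 3.67 in control 2. Many of these spots still counted as positive and significant, though. They numbered 15, 16 and 19 of the 20 on insect 1, insect 2 and insect 4, against 8 and 4 on control 2 and control 3. The undetected fish, mainly insect 1, insect 2 and insect 4, thus read a low signal rather than none. These insect arrays lay on slide 1, and control 2 and control 3 on slide 2. Feed and slide therefore cannot be told apart here. The other 2 probes of this set, A_05_P414837 (BT050094) and A_05_P420737 (CK888287), were also higher in insect 3, at -1.10 and 1.20, than in control 1, at -3.47 and -3.27. Insect 3 and control 1 shared 135 probes of this set whatever the gap.

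The remaining probes with a RefSeq accession had other sets again. A_05_P484557 (NM_001140507) read -6.84, -0.81, -1.10 and -1.17 in insect 1 to insect 4, against -5.87, 0.21 and -0.12 in control 1 to control 3. It was undetected in insect 1 and control 1, though its signal of 5.68 on control 1 was still positive and significant. A_05_P326907 (NM_001141523) read -6.66, -2.96, -1.33 and -3.02 in insect 1 to insect 4, against -2.65, -7.72 and -6.84 in control 1 to control 3. A_05_P412452 (NM_001141762) read -1.19, -6.12, -0.98 and -4.29 in insect 1 to insect 4, against -6.71, -0.68 and -1.22 in control 1 to control 3. The level of -4.29 in insect 4 was the highest undetected value of the set. No 2 of the 8 RefSeq probes had the same set of fish.

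At the edge of the rule, the 3 probes just inside, A_05_P420737, A_05_P407782 and A_05_P432822, had gaps of 3.06, 3.03 and 3.00, and the 3 just outside, A_05_P328147, A_05_P343242 and A_05_P426897, had 3.00, 2.99 and 2.93. The edge does not mark a break in the data: 53 further probes with on-off flags had a gap of 2 to under 3, and 230 had one of 1 to under 2. On-off flags alone did not mean a gap: over the 4016 probes the median gap was 0.05 log2 units, and in 1862 it was below 0.

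With 7 arrays, 112 different sets of 2 to 5 fish are possible, and the 39 probes used 28 of them, 20 once each. Detection in 5 fish was most frequent, with 21 probes, followed by 9 probes detected in 4 fish, 6 in 2 and 3 in 3. Of the 4016 probes with on-off flags, 967 were detected in 5 fish, 922 in 4, 994 in 3 and 1133 in 2. The probes detected on insect 1 to insect 4 numbered 20, 23, 23 and 23, against 28, 25 and 20 on control 1 to control 3. As a share of the 39 this is 51.3% to 59.0% in the insect fish and 51.3% to 71.8% in the controls, beside 41.7% to 45.9% and 44.9% to 49.0% of all probes on the same arrays. Control 1 was highest in both measures, and the part of overall detection in the count of on-off probes was not tested.

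**Figure D2:**
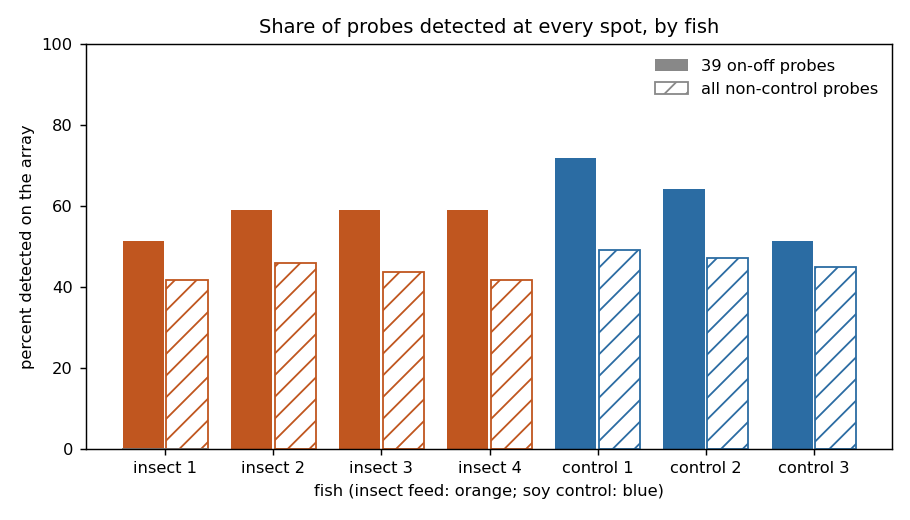
Percent of the 39 on-off probes (solid bars) and of all non-control probes (hatched bars) detected at every spot in each fish, insect feed in orange and control in blue. The solid bars run from 51.3% to 59.0% in the insect fish and from 51.3% to 71.8% in the control fish, and the hatched ones from 41.7% to 45.9% and from 44.9% to 49.0%.

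Pairs of fish were set side by side by how many of the 39 probes they shared as on or as off. The most alike were insect 2 and control 2, in the same state for 27 probes, and next came insect 3 and control 1 with 24. Least alike were insect 3 with insect 4 and insect 3 with control 2, both with 15. The range was 15 to 27 over the 12 pairs of fish on different feeds, 15 to 22 over the 6 pairs within the insect feed and 17 to 22 over the 3 pairs of controls, so the ranges overlapped, and the 2 most alike pairs each joined fish of different feeds. Over the 4016 probes without a limit on the gap, the order was another. There the most alike pairs were insect 1 with insect 4, in the same state for 63.3%, and control 2 with control 3, for 58.4%, while insect 2 and control 2 shared their state for 51.3% and insect 3 and control 1 for 52.1%. Pairs within the insect feed ranged from 47.1% to 63.3% there, pairs of controls from 44.0% to 58.4%, and pairs on different feeds from 34.9% to 52.4%.

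None of the 39 probes was detected in every fish of one feed and in no fish of the other. Among the 4016 probes with on-off flags such a pattern was also infrequent, at 4.73% (9 probes found in the insect fish alone and 181 in the controls alone), so a count of 0 among 39 is near that share and says little about diet. Repeating the rule without control 1 gave 2 such probes, without insect 1, insect 4 or control 2 it gave 1 each time, and without control 1 and insect 3 together it gave 4. With all fish, but detection at a majority of the spots rather than at every spot, it gave 1. The signal was detected in fish of both feeds for 38 of the 39, was undetected in fish of both for 28, and was both found and missing within each feed for 27. Over the 4016 probes, 80.7% were detected in fish of both feeds, and 57.7% were both found and missing within each feed. The most frequent combination, 12 probes, was detection in 3 of 4 insect fish and 2 of 3 controls, and the next, 7 probes, was detection in 2 of 4 insect fish and in all controls. Over all values, 89 of 156 (57.1%) were detected in insect fish and 73 of 117 (62.4%) in controls. Of the 4016 probes, 27.6%, 57.3%, 38.9% and 27.2% were detected in insect 1 to insect 4, against 74.2%, 66.1% and 51.7% in control 1 to control 3. The feeds thus lay further apart in that pool than among the 39.

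**Figure D3:**
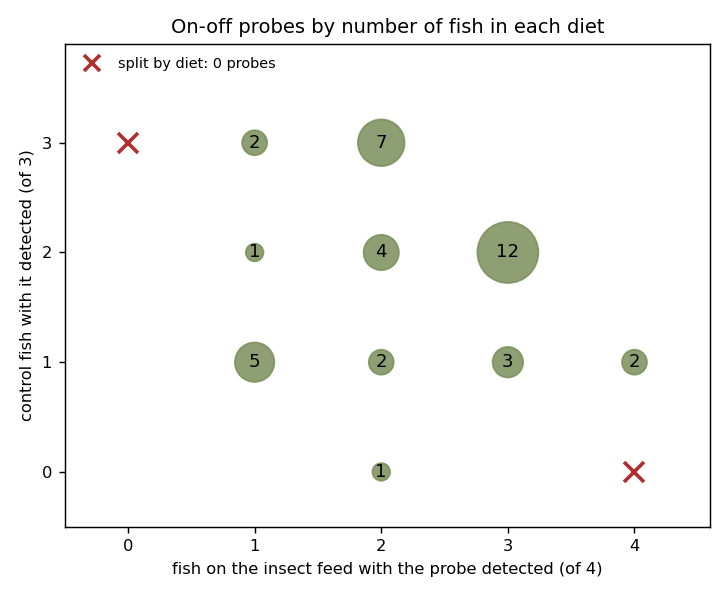
Number of on-off probes (printed in each circle, whose area grows with it) by how many of the 4 fish on the insect feed (x axis) and of the 3 control fish (y axis) had the signal. The crosses mark the corners that a diet switch would fill, which hold 0 probes; the largest circle, 12 probes, lies at 3 insect fish and 2 control fish.

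The difference in level between feeds was fitted with limma over the 24480 probes detected at a majority of their spots on at least 2 arrays, with Benjamini-Hochberg adjustment over all of them. It called 1 probe at an adjusted p under 0.05 (0.00408% of those tested), and that probe is not one of the 39. The called probe missed the list only because the rule asks for the flag at every spot. Where a majority of the spots is enough it becomes an on-off probe, and it then follows diet exactly. Of the on-off probes 0 of 39 were called, and 5 (12.8%) had an unadjusted p under 0.05, beside 8.3% of all tested probes. The mean was higher with insect feed for 19 of the 39 and lower for 20, and the median difference, insect minus control, was -0.01 log2 units, as it was over all tested probes. The median absolute difference was 1.26 log2 units for the on-off probes and 0.29 for all tested probes.

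For 34 of the 39 the 95% interval of the difference included 0 before adjustment, and for all 39 the adjusted p was over the threshold. The SD between fish of one feed had a median of 2.80 log2 units for the on-off probes against 0.43 for all tested probes, and the lowest of the 39 stood at the 97.9th percentile. Since the rule asks for fish far apart, this spread follows from it and is no result. Its effect on precision is that the 95% interval of the difference reached a median of 3.80 log2 units to either side, against 0.74 for all tested probes. With 7 fish, diet differences below that size could mostly not be told from 0 in these probes even before adjustment. After adjustment larger ones could be missed too: the largest, -4.34 log2 units for A_05_P391862, was not called (limma adjusted p = 0.558). The share of a probe's variance that lay between feeds had a median of 4.32% for the on-off probes, from 1.1e-04% to 60.8%, and of 12.9% for all tested probes. The spread that the rule asks for enters this share too, so the lower median is no result about diet.

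**Figure D4:**
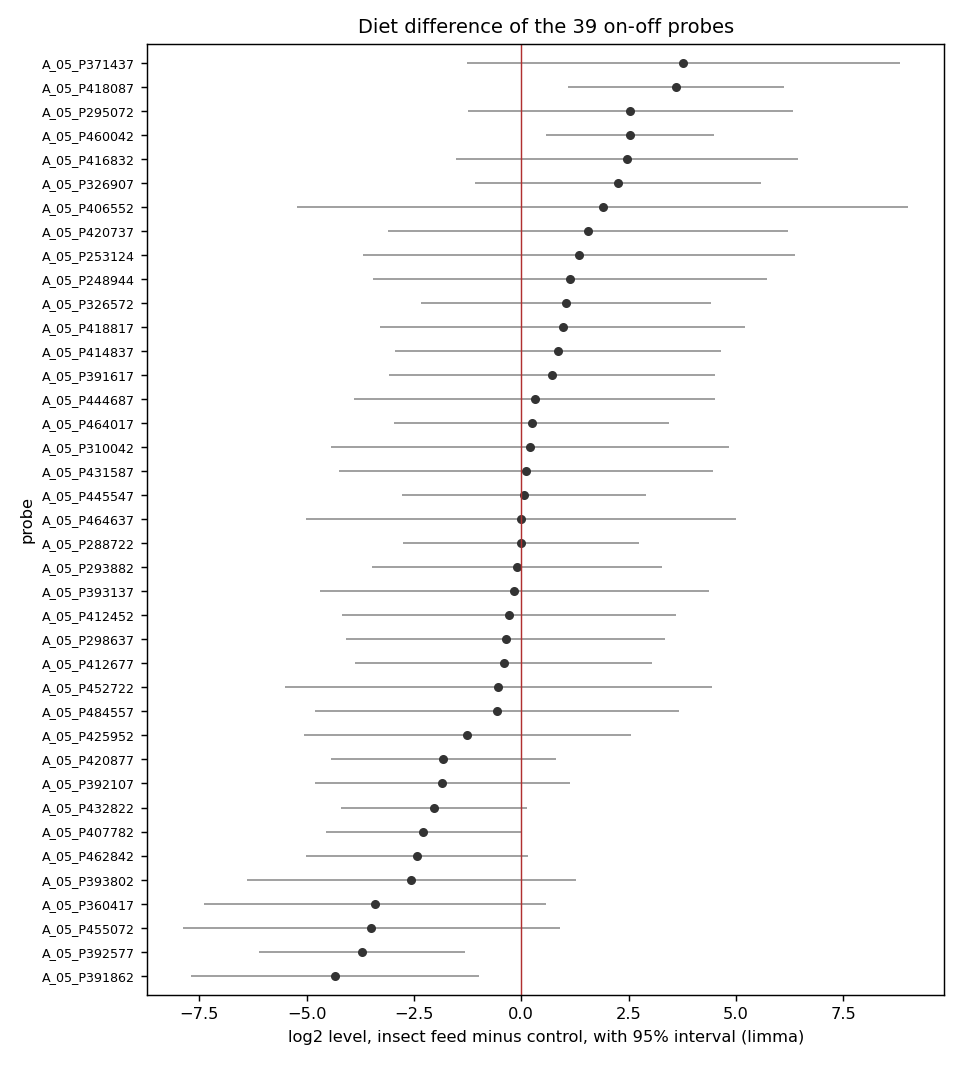
Difference in log2 level between fish on the insect feed and control fish for each on-off probe (points), with its 95% interval from limma (lines), sorted from higher to lower in insect fish; the vertical line marks no difference. Of the 39 points, 19 lie above 0 and 20 below, and 5 intervals exclude 0 before adjustment over all probes.

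The smallest p among probes higher with insect feed belonged to A_05_P418087 (TC215716). It read -2.25, -1.93, -2.85 and -2.80 in insect 1 to insect 4, against -8.12, -2.80 and -7.24 in control 1 to control 3. All insect fish and control 2 had the signal, and control 2 lay within the range of the insect fish. The insect fish averaged -2.46 ± 0.44 (SD, n = 4) and the control fish -6.05 ± 2.85 (SD, n = 3), a difference of 3.60 log2 units that limma did not call (95% interval 1.08 to 6.12, adjusted p = 0.558).

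In the other direction it was A_05_P392577, which read -2.88, -7.41, -7.32 and -7.16 in insect 1 to insect 4, against -2.47, -3.01 and -1.96 in control 1 to control 3. All control fish had the signal, and so did insect 1, at a level within the range of the controls. The insect fish averaged -6.19 ± 2.21 (SD, n = 4) and the control fish -2.48 ± 0.53 (SD, n = 3), a difference of -3.71 log2 units that limma did not call either (95% interval -6.10 to -1.31, adjusted p = 0.537). It was called when insect 1, the exception, was left out (difference -4.81, limma adjusted p = 0.0111). Without that fish, the gap by which the probe was chosen lies between the feeds. The call therefore follows largely from the choice of probe and of fish, and nothing about diet is drawn from it.

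Slide, dye label and the place of a spot were set beside the sets of fish. Only A_05_P460042 (BT058413) divided the arrays exactly by slide, being detected on all slide 1 arrays, at -3.74 to -2.79 in insect fish and -3.54 in control 1, and undetected on slide 2, at -7.40 in control 2 and -7.12 in control 3. Whether slide has a part in it was not tested, and 5.58% of the 4016 probes divided the arrays this way. The state was the same on both slide 2 arrays for 22 of the 39, beside 58.4% of the 4016. Insect 3 and insect 4, whose labels list other dyes, were the only fish without the signal for 2 probes, A_05_P393802 (TC170543) and A_05_P462842 (TC206480), and the only ones with it for 0, beside 3.16% and 0.374% of the 4016.

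Neighbouring probes that were detected on all 7 arrays differed less between the same fish than the on-off probes did. Neighbours that were dark on any array were left out, so whether nearby spots went dark together was not tested. For each of the 39, the probes placed around it that were detected on all 7 arrays (337 in all) had their level in the fish with the on-off signal set against that in the others. The median difference per on-off probe ran from -0.26 to 0.64 log2 units, with a median of 0.03, beside gaps of 3.00 and more for the on-off probes themselves. The largest, for A_05_P326907, came from 4 neighbours. No background of such differences around other probes is given, so a part of position on the array was not tested. Of the 39, 30 had a single spot, 8 had 2 spots and 1 had 20. In those with 2 spots, the spots differed by a median of 0.15 log2 units where detected and by at most 1.28.

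For 10 of the 39 the array held other probes with the same identifier, 12 in all, which the rule had not used. They divided into those that followed the on-off probe and those that did not. As a background, the share of 24469 tested probes that read higher on every array of the same set than on every other array is given for each. Tested probes were detected on at least 2 arrays. A_05_P379592, A_05_P251959 and A_05_P253974, each detected on 1 array, are therefore not among them.

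Following the on-off probe was clearest for NM_001245913. Beside A_05_P406552, the probe A_05_P485207 read -4.14, -7.41, -0.96 and 0.14 in insect 1 to insect 4, against -4.65, -4.46 and -0.48 in control 1 to control 3. It was also higher in insect 3, insect 4 and control 3 than in every other fish, by at least 3.18 log2 units, as were 1.31% of tested probes by any margin. It was detected in 6 fish, though, and so read a low signal in 3 of the 4 fish in which A_05_P406552 was dark. The third probe of this identifier, A_05_P379592, was detected in insect 4 alone, at -1.55, and read -7.41 to -6.73 in the other insect fish and -8.19 to -7.57 in the controls.

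For BT072408, A_05_P418817 read -6.69, -2.04, -7.11 and -2.83 in insect 1 to insect 4, against -8.08, -1.27 and -7.57 in control 1 to control 3. The other probe, A_05_P272824, read -6.85, -4.36, -7.21 and -5.17 in insect 1 to insect 4, against -7.93, -3.98 and -6.80 in control 1 to control 3. The second probe was detected in insect 2 and control 2 alone, which both had the on-off signal. Its reading in insect 4 was not well above background, so the place of insect 4 was not measured (background 1.97%). For CK888287, A_05_P251959 was detected in insect 3 alone, at -1.18, the fish with the highest level of A_05_P420737. It read -5.97 in control 1, undetected, so the place of control 1 was not measured (background 9.07%).

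Another 5 of the 12 were detected in all 7 fish, and 0 of them separated the fish as the on-off probe of the same identifier did. For NM_001139917, A_05_P312612 was lowest in insect 1, at -1.74, and highest in control 2, at -0.58, a span of 1.16 log2 units, whereas A_05_P452722 was dark in 3 of these fish (background 3.43%). For BT059092, A_05_P297027 read -3.02 to -2.28 in the insect fish and -2.73 to -2.08 in the controls, while A_05_P416832 was dark in insect 2, control 2 and control 3 (background 3.83%). For these identifiers, a dark on-off probe thus did not go with a dark reading of the other probe.

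The same was seen for TC174838, where A_05_P431842 read -1.20 to -0.24 in the insect fish and -0.53 to -0.05 in the controls (background 5.69%), and A_05_P326572 was dark in insect 1 and control 3. For BT045469, 2 probes were present throughout, A_05_P302717 at -4.06 to -3.31 in the insect fish and -4.28 to -3.81 in the controls, and A_05_P377139 at -4.24 to -3.72 in the insect fish and -4.47 to -3.84 in the controls. The on-off probe of that identifier, A_05_P391862, was detected at -0.79 in insect 4 and at -2.40 to -0.06 in the controls, and read -7.06 to -6.48 in the other insect fish (background 2.32%).

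The remaining 3 other probes were near the limit of detection or in another order. A_05_P257979 of NM_001140507 read -4.81 to -3.59 in the insect fish and -4.63 to -3.38 in the controls (background 2.49%). Of the fish that lacked A_05_P484557, it was highest of all in control 1, but lowest of all and undetected in insect 1. A_05_P391932 of TC215716 read -4.47 to -2.67 in the insect fish and -3.73 to -2.24 in the controls, and was also highest in control 1, which lacked A_05_P418087 (background 3.79%). A_05_P253974 of NM_001141762 was detected in insect 2 alone, at -4.64, a fish without A_05_P412452 (background 2.2%). For the 29 other on-off probes the array held no further probe of the identifier.

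**Figure D5:**
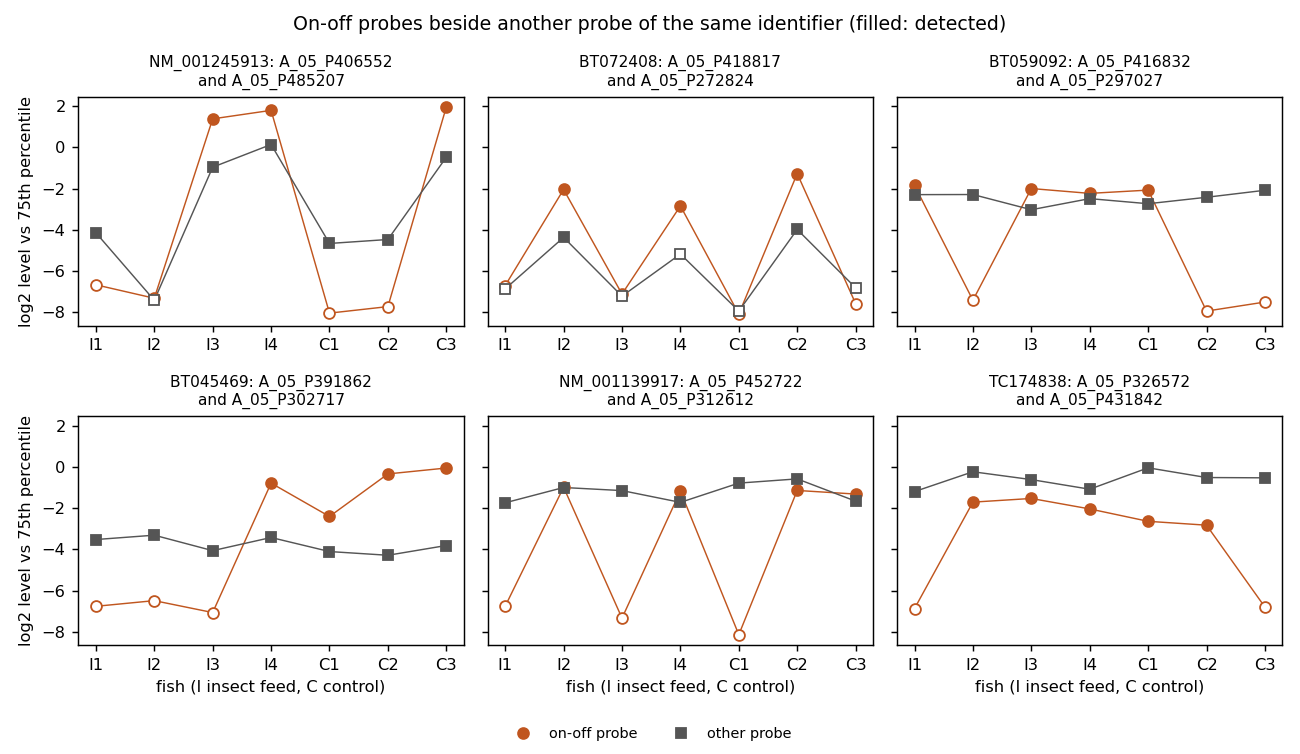
Level, as log2 signal relative to the array's 75th percentile, of 6 on-off probes (orange circles) and of another probe with the same identifier (grey squares) in the 4 insect fish (I1 to I4) and the 3 control fish (C1 to C3); filled symbols are detected. In the first panel the grey line is higher in the same fish as the orange one, in the second it is detected in 2 of the 3 fish with the orange signal and in no other, and in the other 4 it stays detected in all fish.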

How the data were processed

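RNA of the proximal intestine of 7 trout was measured on 1-colour arrays, from 50 ng of RNA per fish, which the labels' protocols describe as labelled with cyanine 3 after amplification. For each array there is a deposited scanner file with linear intensity values and 0 or 1 flags for every spot. Per the submitters' processing notes, the authors extracted them with Agilent Feature Extraction (version 12.1.1.1). The deposited series table holds intensity values equal to the background-subtracted signal of those files (largest difference 4.91e-08). Each array has 61657 non-control spots, 0 of them saturated.

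From the deposited intensity values, the processed signal was put on a log2 scale and averaged over a probe's spots, leaving out outlier spots (430 over all arrays). The level subtracted from an array was the 75th percentile among the 18009 probes that carry the flag at every spot of all arrays. Groups were taken from the sample titles. Diet was the only term of the limma 3.58.1 fit (lmFit and eBayes, R 4.3.3, threshold 0.05). The fit was tested on simulated data with normally distributed values, which does not show how it performs on on-off probes. Named probes are the 12 of widest gap, those with a RefSeq accession, the 3 on each side of the gap limit, the one of smallest diet p in each direction and those with other probes of their identifier; others named were picked after their values were seen. The members and lists were chosen with earlier results of these data known. Cell type marker lists could not be looked up, since no probe has a gene name, and no probe sequence was used. With 1 array per fish, the number of arrays limits the precision. Their between-spot SD, over probes with 2 spots, was 0.20 to 0.23 log2 units on insect arrays and 0.27 on control 1, all on slide 1. It was 0.42 on control 2 and 0.41 on control 3, the slide 2 arrays. Alternatives were other scalings, background corrections, filters, gap limits, blocks, and arrays left out.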

Additional observations from a re-analysis of the deposited data

Results flagged for a closer look

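Within the 4 insect arrays, the critical value of Dixon's ratio (gap of the extreme array to its neighbour over the group's range, at the 95% level) was exceeded by 17 of the 39 on-off probes. Chance gives about 1 in 20 groups, but 16 of the 17 are among the 23 probes for which 1 insect fish differed from the other 3 in detection, so most of these values follow from the rule that chose the probes. The control group of 3 is too small for this ratio.

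Insect 1 stood apart in A_05_P391617 (0.967), A_05_P484557 (0.942), A_05_P392577 (0.945) and A_05_P326572 (0.905). Insect 2 stood apart in A_05_P253124 (0.864), A_05_P416832 (0.93), A_05_P412677 (0.892) and A_05_P445547 (0.844). Insect 3 stood apart in A_05_P431587 (0.931), A_05_P298637 (0.967), A_05_P464017 (0.844), A_05_P248944 (0.853), A_05_P414837 (0.895), A_05_P288722 (0.892) and A_05_P420737 (0.932). Insect 4 stood apart in A_05_P391862 (0.908) and A_05_P460042 (0.918); A_05_P460042 was detected on all 4.

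Among other probes of the same identifiers, A_05_P379592 was apart in insect 4 (0.885) and A_05_P251959 in insect 3 (0.889). The number of on-off probes detected was apart in insect 1, with 20 against 23 on each of the other insect arrays (ratio 1, since those 3 counts are equal).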

How the results depend on the processing

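The number of on-off probes was 39, and 0 with normexp, whose offset of 50 shrinks differences between low signals, 92 with a gap of at least 2 and 21 with a gap of at least 4. It was 39 to 45 with other scalings, detection rules or the series table, and 34 to 39 when 1 array was left out, of which 27 to 33 were among the 39. The removal of control 1 with insect 3 and the restriction to slide 1 were chosen after seeing the data and gave 38 (24 shared) and 31 (23 shared). The number following diet exactly was 0, and 1 with detection at a majority of the spots, where A_05_P427877 joins, 0 to 2 when 1 array was left out (2 without control 1; 1 without insect 1, insect 4 or control 2), and 4 without control 1 and insect 3; fewer arrays leave fewer exceptions to find. The number past the diet threshold was 0 with limma (5 at an unadjusted p under 0.05), and 1 with detection at a majority of the spots, again A_05_P427877. It was 0 to 1 when 1 array was left out (1 without insect 1, A_05_P392577, which then has no exception left). At an unadjusted p under 0.05 it ran from 1 to 10 over the alternatives other than normexp. The diet difference of A_05_P418087 ran from 0.83 (normexp) to 5.66 (slide as a fixed block, or slide 1 alone), with limma adjusted p from 0.0586 to 0.996. Since slide 2 held no insect array, both slide settings set the insect fish against control 1 alone. Control 2, which had the signal, drops out there. For A_05_P392577 the difference ran from -4.81 (without insect 1) to -0.37 (normexp), with limma adjusted p from 0.0111 to 0.996. With the replicate block limma called 0 on-off probes, and same-numbered fish deviated with correlations of -0.27, 0.17 and -0.31, so the numbers are only names. The count of other probes that read higher in every fish of the set was 3 under both scalings tried, of which 1 was detected in all of those fish. Signals not well above background have no measured size, which limits every gap given.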
